A study of Mus musculus with 13 samples.

Results

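The tumour necrosis factor receptor-associated factors (TRAFs) are adaptor proteins that carry signals from receptors at the cell surface to kinases and transcription factors, and their transcripts were followed here in mouse lung after bleomycin, with and without the cannabinoid receptor CB1R. The members were chosen by name as the 7 genes Traf1, Traf2, Traf3, Traf4, Traf5, Traf6 and Traf7, out of 20270 genes that the deposited tables list by symbol. All 7 were present in the tables and all 7 were among the 15315 genes with enough counts to be tested.

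TRAF proteins bind the cytoplasmic tails of tumour necrosis factor (TNF) receptors, or the adaptors of the interleukin-1 and Toll-like receptors, through a conserved carboxy-terminal MATH domain. Most of them also carry a RING finger, the fold of many ubiquitin ligases, and the ubiquitin chains that TRAF complexes build recruit the kinases that activate NF-kB and the stress kinases JNK and p38. In the lung these routes operate in epithelium, fibroblasts, macrophages and lymphocytes, so that a TRAF transcript measured in whole tissue is a sum over many cell types.

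The lower right lobe was taken from each mouse. WT stands for wildtype, and the WT mice were male C57BL/6J, obtained at 13 weeks of age, while the sources used here give no sex or age for the CB1R KO mice. Control mice were WT and had received saline, so that CB1R KO bleomycin and control lungs differ in both genotype and drug. WT bleomycin mice and CB1R KO bleomycin mice had been given bleomycin once by oropharyngeal aspiration, at 1 U per kg, and were studied 14 days later. CB1R KO mice lack Cnr1, the gene of CB1R, in every tissue (Cnr1-/-, on a C57BL/6J background), so that effects within a given cell type cannot be separated, and no CB1R KO lungs without the drug were among the samples analysed here. There were 4 control libraries (labelled 3, 21, 24 and 26), 5 WT bleomycin libraries (4, 2, 5, 4-B2 and 7) and 4 libraries labelled CB1R KO (8, 9, 10 and 11). Each library was taken as 1 mouse. WT bleomycin 4 and 4-B2 share the number 4, and the labels do not say whether they came from the same mouse.

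Estimated counts per library lay between 14615904 and 16662580 in 12 libraries, and CB1R KO library 11 held 53463884. No pair of replicates agreed within counting noise (the chi-square of their counts was at least 6.08 times its degrees of freedom), so all 13 were kept as separate samples. This check cannot tell whether WT bleomycin 4 and 4-B2 came from the same mouse. The labels of control 26 and of WT bleomycin 4-B2 and 7 are written in capitals and those of the other 10 libraries in lower case, and what this marks is not given in the sources used here. The tissue carried the markers of lung in every library, with the 6 type II cell markers summing to between 18960 and 37200 TPM, a level scaled for library total and transcript length. Cnr1 was at 1.05, 0.403, 0.723 and 0.499 TPM in control libraries 3, 21, 24 and 26. It was at 1.85, 1.49, 1.65, 0.848 and 1.55 TPM in WT bleomycin 4, 2, 5, 4-B2 and 7. In the libraries labelled CB1R KO (8, 9, 10 and 11) it was at 1.50, 0.648, 1.21 and 0.909 TPM. The tables do not show which part of the gene these reads came from, so that Cnr1 does not check the genotype, and each direction given for CB1R KO rests on the label.

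In TPM, which can be compared between genes, Traf7 was the most abundant member in every library and Traf6 was the member with the lowest mean in each group. Control lungs held 45.1 ± 9.43 TPM of Traf7 and 11.3 ± 0.525 TPM of Traf6 (SD, n = 4). Between them the order of the means in control lungs was Traf1 (25.4 ± 2.84), Traf5 (18.2 ± 1.73), Traf2 (18.0 ± 2.25), Traf3 (15.3 ± 2.17) and Traf4 (13.02 ± 1.83). Traf5 and Traf2 did not differ beyond their spread, with Traf5 the higher of the pair in 2 of 4 control libraries.

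The order was different after bleomycin, when Traf4 stood second behind Traf7. In WT bleomycin lungs the means ran from Traf7 (49.3 ± 2.32 TPM, SD, n = 5) through Traf4 (24.7 ± 2.68), Traf2 (20.6 ± 2.91), Traf3 (19.8 ± 1.59), Traf1 (18.3 ± 3.60) and Traf5 (17.1 ± 3.66) to Traf6 (10.7 ± 0.633). The first and the last steps held within each library, as Traf7 lay above Traf4, Traf4 above Traf2 and Traf5 above Traf6 in 5 of 5 libraries, whereas Traf2 lay above Traf3 in 2 of 5. In CB1R KO bleomycin lungs Traf7 (47.2 ± 6.38, SD, n = 4) and Traf4 (22.1 ± 1.73) again led, and Traf2 (20.9 ± 1.29), Traf1 (20.7 ± 1.34) and Traf3 (19.5 ± 0.614) lay within about their spread of each other, above Traf5 (18.3 ± 0.805) and Traf6 (11.3 ± 0.308).

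**Figure D1:**
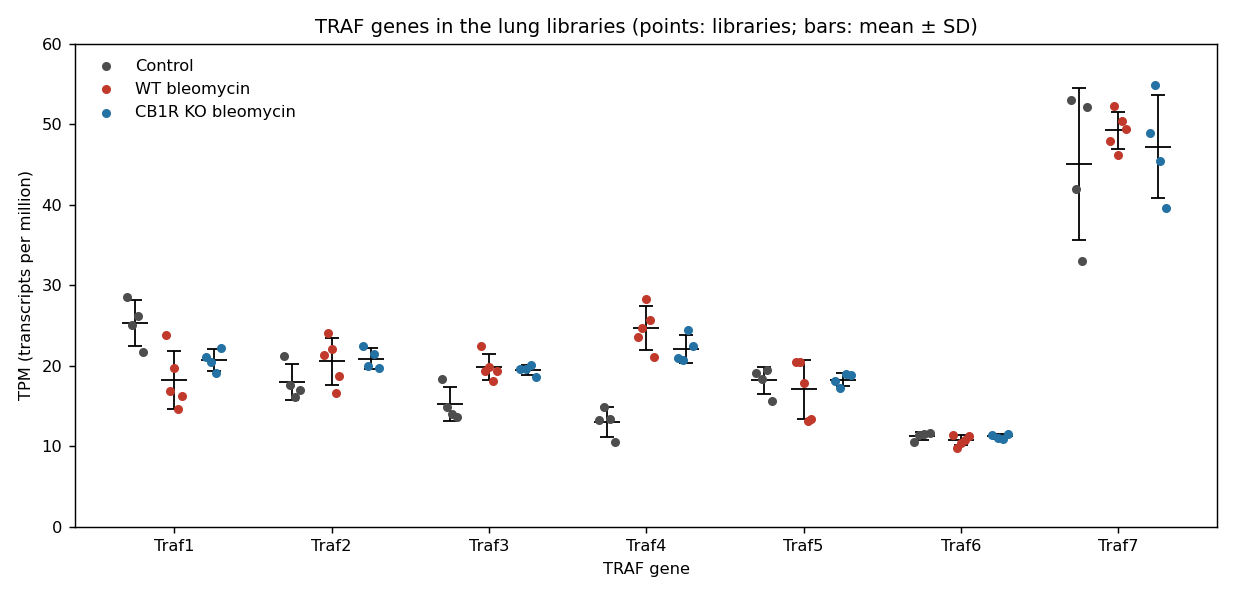
TPM of the 7 TRAF genes in each of 13 lung libraries, with points for libraries, horizontal bars for group means and error bars for the SD (n = 4 control, 5 WT bleomycin, 4 CB1R KO bleomycin). Traf4 lies between 10.5 and 14.9 TPM in control lungs and between 20.7 and 28.4 TPM in the bleomycin groups, while Traf6 stays between 9.82 and 11.7 TPM in all 13 libraries.

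The comparison of WT bleomycin with control lungs asked which members moved with the injury. Traf4 and Traf3 rose, Traf1 fell, and the other 4 members did not pass the test. Counts were fitted over all 15315 genes with the quasi-likelihood test of edgeR, in CPM (counts relative to library size, scaled by the TMM method), and a gene was called at an adjusted p under 0.05 (Benjamini-Hochberg). Bleomycin moved much of the transcriptome, with 48.9% of all tested genes called, 25.0% as higher and 23.9% as lower, so that 3 of 7 members called, 2 higher and 1 lower, is near the background. The median log2 fold change was -0.05 over the 7 members and -0.01 over all tested genes.

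Traf4 does not serve the classical TNF receptors, and it is known from cell junctions and from TGF-beta signalling. In control libraries 3, 21, 24 and 26 it was at 13.3, 14.9, 13.4 and 10.5 TPM. In WT bleomycin 4, 2, 5, 4-B2 and 7 it was at 23.6, 24.7, 28.4, 25.8 and 21.1 TPM. The lowest WT bleomycin library thus lay above the highest control library, and library 26 was the lowest of the controls. Fitted to counts, Traf4 was 1.85-fold higher (95% interval 1.58 to 2.17, log2 fold change 0.89, SE 0.11, edgeR adjusted p = 1.21e-05), the largest difference of the 7 members. Of the 8 markers of transitional and basal epithelium, 6 were called higher as well, beside 25.0% of all tested genes. None was at 0, and their summed level was 586 to 638 TPM in control and 968 to 1268 TPM in WT bleomycin libraries. Other lists rose too: all 7 markers of monocyte-derived macrophages, all 5 of dividing cells and 4 of 6 of fibroblasts were called higher, with 0 lower. Because these are whole-lung libraries, more cells that express Traf4 and more Traf4 RNA per cell cannot be told apart here or for any other member. The part of any of these markers in the result was not tested.

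Traf3 holds the non-canonical NF-kB kinase NIK (Map3k14) at low levels and carries antiviral signals towards interferon genes. It was at 18.4, 14.9, 14.1 and 13.7 TPM in control 3, 21, 24 and 26. It was at 22.5, 19.3, 19.8, 18.2 and 19.4 TPM in WT bleomycin 4, 2, 5, 4-B2 and 7. On this scale control 3 reached into the WT bleomycin range, while in CPM, the scale of the test, the WT bleomycin libraries (70.2 to 80.9 CPM) all lay above the controls (53.5 to 68.7 CPM). The fitted difference was 1.24-fold (95% interval 1.11 to 1.38, log2 fold change 0.31, SE 0.07, edgeR adjusted p = 0.0033). All 7 markers of monocyte-derived macrophages were called higher as well, beside 25.0% of all tested genes. Their summed level was 188 to 253 TPM in control and 1198 to 1354 TPM in WT bleomycin libraries. None was at 0. Other lists rose too: all 5 markers of dividing cells, 6 of 8 of transitional and basal epithelium and 4 of 6 of fibroblasts were called higher, with 0 lower. The part of any of these markers in the level of Traf3 was not tested.

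Traf1 lacks the RING finger, acts together with Traf2, and is best known from activated lymphocytes. In control 3, 21, 24 and 26 it was at 28.5, 25.0, 26.2 and 21.7 TPM. In WT bleomycin 4, 2, 5, 4-B2 and 7 it was at 23.8, 16.9, 19.7, 14.6 and 16.3 TPM. In TPM the highest WT bleomycin library lay above the lowest control library, and in CPM the groups did not overlap (21.8 to 30.2 against 32.5 to 40.3 CPM). Traf1 was 0.691-fold its control level (95% interval 0.597 to 0.798, log2 fold change -0.53, SE 0.10, edgeR adjusted p = 0.000423). Some lymphocyte markers fell as well, where 23.9% of all tested genes were called lower. Of the B cell markers 5 of 6 were called lower, at a summed 157 to 385 TPM in control and 60.4 to 172 TPM in WT bleomycin libraries. Of the T and NK cell markers 4 of 8 were called lower, at 110 to 164 TPM and 70.6 to 113 TPM. No marker of either list was at 0. Other lists fell too, among them 4 of 5 markers of neutrophils, 5 of 6 of type II cells and 6 of 7 of endothelium, where 1 was higher. All 5 of red blood cells and all 5 of cardiac and striated muscle were also called lower. The part of any of these markers in the level of Traf1 was not tested. Of all tested genes, 21.5% had the WT bleomycin libraries all above the controls in CPM and 18.8% had them all below, against 2 and 1 of the 7 members.

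Traf2 is the RING-bearing ligase scaffold of the TNF receptors and Traf5 works beside it at receptors of lymphocytes such as CD40, CD27 and OX40. Traf2 was at 21.2, 17.6, 16.2 and 17.0 TPM in control 3, 21, 24 and 26 and at 21.3, 24.1, 22.1, 16.7 and 18.7 TPM in WT bleomycin 4, 2, 5, 4-B2 and 7. The groups overlapped and the log2 fold change of 0.15 (SE 0.09, 95% interval -0.05 to 0.34, edgeR adjusted p = 0.195) did not pass the test, although without WT bleomycin 4-B2 it was 0.21 with an adjusted p of 0.0493. Traf5 was at 19.2, 18.4, 19.4 and 15.7 TPM in control 3, 21, 24 and 26 and at 20.5, 20.5, 17.9, 13.1 and 13.4 TPM in WT bleomycin 4, 2, 5, 4-B2 and 7. Its log2 fold change was -0.13 (SE 0.12, 95% interval -0.38 to 0.12, edgeR adjusted p = 0.391).

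Traf6 is the ligase of the interleukin-1 and Toll-like receptor routes, and Traf7 carries WD40 repeats in place of the MATH domain and was found as a partner of the kinase Mekk3 (Map3k3). Traf6 was at 10.5, 11.5, 11.6 and 11.7 TPM in control 3, 21, 24 and 26 and at 11.4, 9.82, 10.5, 10.8 and 11.3 TPM in WT bleomycin 4, 2, 5, 4-B2 and 7. The log2 fold change of Traf6 was -0.11 (SE 0.07, 95% interval -0.25 to 0.03, edgeR adjusted p = 0.176), and its coefficient of variation was 2.74% to 5.89% in the 3 groups, the lowest of the members except in WT bleomycin lungs, where Traf7 had 4.71%. Traf7 was at 53.0, 42.0, 33.0 and 52.1 TPM in control 3, 21, 24 and 26 and at 48.0, 52.3, 46.2, 50.4 and 49.4 TPM in WT bleomycin 4, 2, 5, 4-B2 and 7. Its control libraries spanned the whole WT bleomycin range, and its log2 fold change was -0.05 (SE 0.14, 95% interval -0.35 to 0.25, edgeR adjusted p = 0.788), with the sign turning to 0.15 on log2 TPM.

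CB1R KO bleomycin lungs were compared with WT bleomycin lungs to ask whether the loss of CB1R changed the TRAF transcripts of the injured lung. No member passed the test in edgeR, in DESeq2 or in limma on log2 TPM, and 0 of 7 had an unadjusted p under 0.05 in edgeR, against 17.0% of all tested genes. Over all tested genes 0.979% were called, 0.359% as higher and 0.620% as lower, so that a count of 0 among 7 members is what the background would give. That background was itself unsteady: the 150 genes called became 1 without CB1R KO library 9 and 653 without CB1R KO library 10. The 7 log2 fold changes ran from -0.20 to 0.13, with a median of -0.04 over members and 0 over all tested genes, and every 95% interval lay within 0.42 of 0 in log2.

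Traf4 came closest to a difference. It was at 20.9, 20.7, 24.5 and 22.4 TPM in CB1R KO 8, 9, 10 and 11, and all 4 lay below the WT bleomycin mean in log2 CPM. Libraries 8 and 9 were just below the lowest WT bleomycin library (21.1 TPM) and 10 and 11 were within the WT bleomycin range. The log2 fold change was -0.20 (SE 0.10, 95% interval -0.42 to 0.02, edgeR adjusted p = 0.353), which is 0.872-fold (0.749 to 1.02). Traf1 was at 21.1, 20.4, 19.1 and 22.3 TPM in CB1R KO 8, 9, 10 and 11, with all 4 above the WT bleomycin mean in log2 CPM and a log2 fold change of 0.13 (SE 0.10, 95% interval -0.08 to 0.34, edgeR adjusted p = 0.540). Summed B cell markers were at 116 to 151 TPM and T and NK cell markers at 109 to 122 TPM in these libraries. Against WT bleomycin, 0 of 6 and 1 of 8 of these markers were called, beside 0.979% of all tested genes.

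Traf3 was at 19.6, 19.6, 20.1 and 18.6 TPM in CB1R KO 8, 9, 10 and 11, within the WT bleomycin range, with a log2 fold change of -0.04 (SE 0.07, 95% interval -0.20 to 0.12). Traf2 was at 22.5, 20.0, 21.5 and 19.7 TPM in the same libraries, with a log2 fold change of -0.05 (SE 0.09, 95% interval -0.24 to 0.14). Traf5 was at 18.2, 17.2, 19.0 and 18.8 TPM, with a log2 fold change of 0.07 (SE 0.12, 95% interval -0.18 to 0.32). None of these genes left the range that WT bleomycin mice covered in TPM. Traf6 was at 11.5, 11.0, 11.0 and 11.6 TPM in CB1R KO 8, 9, 10 and 11, with a log2 fold change of 0.02 (SE 0.07, 95% interval -0.12 to 0.16). Traf7 was at 49.0, 54.9, 45.5 and 39.6 TPM, with a log2 fold change of -0.09 (SE 0.14, 95% interval -0.39 to 0.20). Traf7 had the widest spread of the 7 among the CB1R KO mice, with a coefficient of variation of 13.5%. The edgeR adjusted p of these 5 members lay between 0.773 and 0.885. No member had CB1R KO and WT bleomycin libraries apart in CPM, against 2.50% of all tested genes with every CB1R KO library above and 3.10% with every one below.

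CB1R KO bleomycin lungs were then set against the same control libraries, which this comparison shares with the first, so that the values stand side by side and are not independent of each other. The same members passed: Traf4 and Traf3 were higher and Traf1 was lower. Traf4 was 1.62-fold its control level (95% interval 1.37 to 1.91, log2 fold change 0.69, SE 0.11, edgeR adjusted p = 0.000307), beside 1.85-fold in WT bleomycin. Traf3 was 1.21-fold (1.08 to 1.35, log2 fold change 0.27, SE 0.08, edgeR adjusted p = 0.015), beside 1.24-fold, and in CPM its lowest CB1R KO library (68.2) fell just below its highest control library (68.7). Traf1 was 0.755-fold (0.648 to 0.878, log2 fold change -0.41, SE 0.10, edgeR adjusted p = 0.00695), beside 0.691-fold. The calls of Traf3 and Traf1 were less steady than that of Traf4, since Traf3 had an adjusted p of 0.0505 without control library 21 and 0.056 in libraries with lower-case labels, and Traf1 had an adjusted p of 0.113 in limma on log2 TPM.

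Of all tested genes 35.4% were called in that comparison, 19.0% as higher and 16.3% as lower, against 3 of 7 members, 2 higher and 1 lower. Every CB1R KO library lay above every control library in CPM for 17.7% of all tested genes and below for 15.8%, against 1 member each (Traf4 above, Traf1 below). The log2 fold changes of Traf2 (0.10), Traf5 (-0.06), Traf6 (-0.09) and Traf7 (-0.14) did not pass the test.

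**Figure D2:**
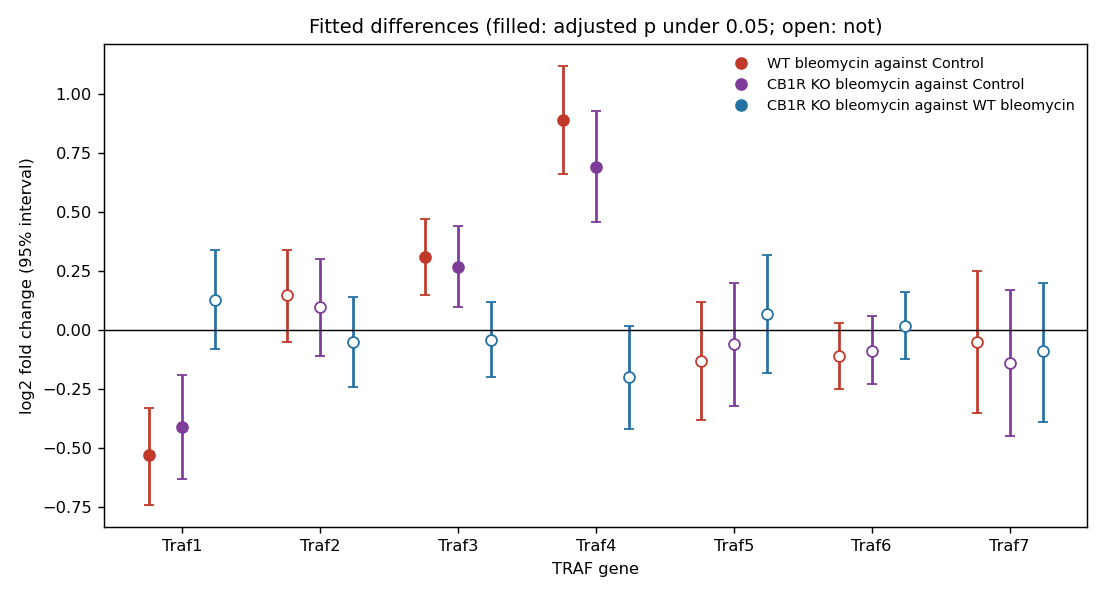
Log2 fold changes of the 7 TRAF genes in 3 comparisons, with bars for the 95% interval, filled symbols for an adjusted p under 0.05 and open symbols for the rest. Traf4 (0.89 and 0.69), Traf3 (0.31 and 0.27) and Traf1 (-0.53 and -0.41) are filled in both comparisons with control, and no symbol is filled for CB1R KO against WT bleomycin.

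As shares of a common pool, the composition of TRAF transcripts moved more than their sum. The summed TPM of the 7 genes was 146 ± 12.8 in control (SD, n = 4), 160.5 ± 10.2 in WT bleomycin (SD, n = 5) and 160.0 ± 4.82 in CB1R KO bleomycin lungs (SD, n = 4), and the ranges of the 3 groups overlapped (134 to 164, 149.5 to 171 and 153 to 164 TPM). Traf4 held 7.39% to 10.3% of the pool in control, 13.8% to 17.2% in WT bleomycin and 12.7% to 15.3% in CB1R KO bleomycin libraries. Traf1 held 15.2% to 19.5% in control, 9.78% to 13.9% in WT bleomycin and 11.9% to 14.6% in CB1R KO bleomycin libraries. Both bleomycin groups thus lay apart from control in both shares, and the WT and CB1R KO ranges overlapped. The same held for Traf3, at 9.60% to 11.2% in control, 11.5% to 13.1% in WT bleomycin and 12.0% to 12.5% in CB1R KO bleomycin libraries. Traf7 remained the largest share, at 24.7% to 36.6% in control, 28.1% to 33.7% in WT bleomycin and 25.9% to 33.5% in CB1R KO bleomycin libraries.

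**Figure D3:**
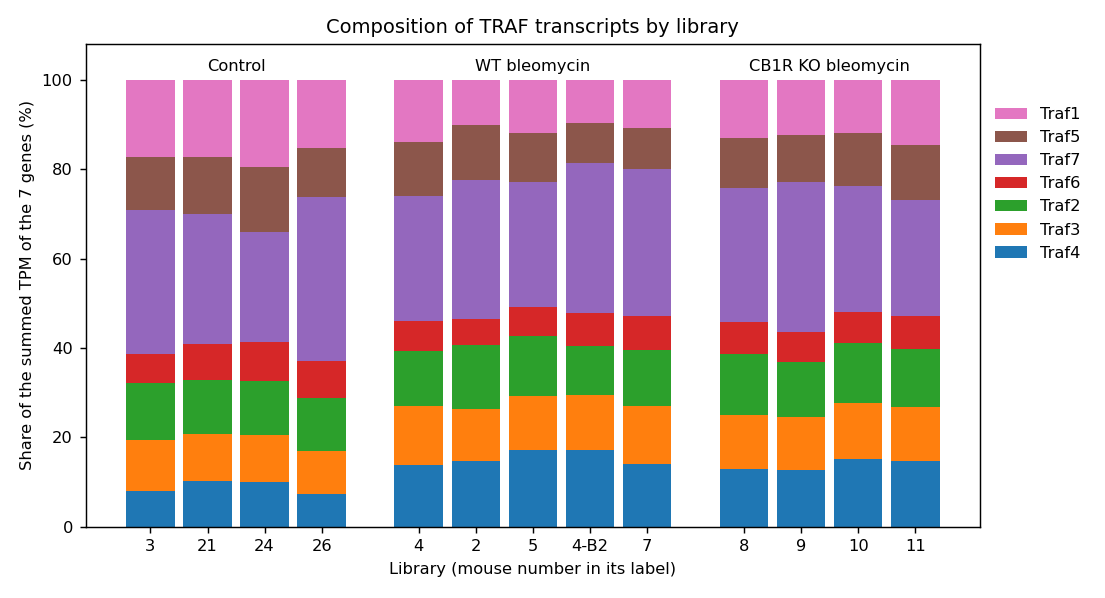
Share of each TRAF gene in the summed TPM of the 7 genes, in percent, with 1 stacked bar per library and libraries named by the number in their labels. The share of Traf4, at the foot of each bar, is 7.39% to 10.3% in control libraries and 12.7% to 17.2% in bleomycin libraries, and that of Traf1, at the top, is 15.2% to 19.5% and 9.78% to 14.6%.

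The promoters of the 3 members that moved are shown because they differ in composition. The sequences are the 250 bases before the annotated start in RefSeq, build GRCm38.p6, each read 5′ to 3′ along its gene, and 1 start per gene was available for all 7 members. Traf1 lies on the minus strand (chr2:34961773-34962022), Traf3 on the plus strand (chr12:111166120-111166369) and Traf4 on the minus strand (chr11:78165551-78165800). Capitals mark every match, on either strand, to 5 motifs: the NF-kB consensus, the AP-1 site TGANTCA, the TATA box TATAAA, the CCAAT box CCAAT and the GC box GGGCGG.
Traf1: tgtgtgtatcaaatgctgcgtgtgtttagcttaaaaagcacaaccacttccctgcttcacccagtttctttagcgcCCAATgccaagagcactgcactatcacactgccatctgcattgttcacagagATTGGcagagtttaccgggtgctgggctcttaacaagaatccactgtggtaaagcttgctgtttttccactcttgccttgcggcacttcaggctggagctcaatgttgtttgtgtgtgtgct
Traf3: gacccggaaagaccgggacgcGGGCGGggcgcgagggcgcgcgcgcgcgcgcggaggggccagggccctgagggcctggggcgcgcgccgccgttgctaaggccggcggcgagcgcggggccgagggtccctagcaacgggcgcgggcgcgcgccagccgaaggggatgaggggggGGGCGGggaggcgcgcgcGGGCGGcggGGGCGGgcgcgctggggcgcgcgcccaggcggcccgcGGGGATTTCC
Traf4: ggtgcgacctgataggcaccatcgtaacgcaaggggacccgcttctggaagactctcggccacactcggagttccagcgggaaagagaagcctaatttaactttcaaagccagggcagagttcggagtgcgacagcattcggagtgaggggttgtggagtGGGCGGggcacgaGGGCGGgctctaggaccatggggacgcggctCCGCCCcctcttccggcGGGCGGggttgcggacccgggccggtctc

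The Traf3 promoter ended in the only NF-kB match among the 7 members, at positions -10 to -1 from the start, and 3.90% of the 32851 mouse promoters of this length in the table held such a match. It also held 4 GC boxes, as did the Traf4 promoter, and no match of different motifs overlapped in the 3 sequences. The Traf1 promoter held no GC box and 2 CCAAT boxes, at -174 to -170 and at -122 to -118, the latter on the opposite strand. GC boxes were found in 4 of 7 members (Traf3, Traf4, Traf5 and Traf6) and in 32.7% of all promoters, and CCAAT boxes in 2 of 7 (Traf1 and Traf7) and in 33.8% of all promoters. No member had a match to the AP-1 site or the TATA box, which 6.75% and 12.4% of all promoters held, and Traf2 had no match to any of the 5 motifs. The GC content was 85.2% for Traf3, 64.8% for Traf4 and 48.0% for Traf1, beside a median of 52.4% over all promoters. A match is a run of letters only, and binding was not measured.

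Over the 13 libraries some members moved with each other and some apart, described here by Pearson's r of log2 CPM and by the r left after each group's mean was removed. These libraries share group, tissue makeup and depth, so r is given with no test. Traf2 and Traf6 ran opposite to each other over the 13 libraries (r = -0.84) and also within groups (-0.79). Traf3 and Traf4 rose and fell together over the 13 libraries (0.76) but not within groups (-0.04). Traf1 ran opposite to Traf4 over all libraries (-0.78) and not within groups (0.18). Traf5 ran with Traf2 (0.43, 0.68 within groups) and with Traf1 (0.53, 0.54 within groups). In TPM, Traf1, Traf2 and Traf5 were each lower in WT bleomycin 4-B2 and 7, labelled in capitals, than in the other WT bleomycin libraries. Removing group means leaves such a difference in, and its part in r was not tested.

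The genes of the whole table most like each member were found by the same r over 13 libraries. For Traf4 they were Vash1 (0.988), Nectin2 (0.983) and Nans (0.981), with r within groups of 0.917, 0.877 and 0.859. For Traf1 they were Plekhm3 (0.981), Chst1 (0.960) and Zfp963 (0.951), with 0.923, 0.845 and 0.844 within groups. For Traf3 they were Phf11a (0.963), Plbd1 (0.956) and Naip5 (0.943), with 0.888, 0.885 and 0.839 within groups. Traf2 was most like Twf2 (0.921), Camkk2 (0.883) and Hip1 (0.882), with 0.922, 0.867 and 0.879 within groups. Traf6 was most like Mbl1 (0.916), Arl4a (0.915) and Gramd2 (0.911), with 0.884, 0.883 and 0.875 within groups. Traf5 was most like Gapt (0.888), Tal1 (0.875) and St3gal2 (0.861), with 0.882, 0.912 and 0.865 within groups. Traf7 was most like Cabcoco1 (0.873), Vmn1r1 (0.865) and Fam216b (0.854), with 0.875, 0.930 and 0.849 within groups. These are the highest values over all tested genes, so their size describes a selection.

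Traf5, Traf1 and Traf2 differed among WT bleomycin mice in step with the style of the labels. Traf5 was at 13.1 and 13.4 TPM in the 2 WT bleomycin libraries labelled in capitals (4-B2 and 7) and at 17.9 to 20.5 TPM in the 3 labelled in lower case, and control 26, in capitals, was at 15.7 TPM beside 18.4 to 19.4 TPM in the other controls. Traf1 was at 14.6 and 16.3 TPM in 4-B2 and 7 and at 16.9 to 23.8 TPM in the other WT bleomycin libraries, and at 21.7 TPM in control 26 beside 25.0 to 28.5 TPM in the other controls. Traf2 was at 16.7 and 18.7 TPM in 4-B2 and 7 and at 21.3 to 24.1 TPM in the other WT bleomycin libraries, while control 26 (17.0 TPM) lay among the other controls (16.2 to 21.2 TPM). In libraries labelled in lower case alone, Traf2 had a log2 fold change of 0.25 in WT bleomycin against control (edgeR adjusted p = 0.053) and of -0.16 in CB1R KO against WT bleomycin (adjusted p = 0.555), where all libraries gave 0.15 and -0.05. In the same lower-case libraries, the log2 fold change of Traf5 in WT bleomycin against control was 0 (edgeR adjusted p = 0.986) and that of Traf1 was -0.50 (adjusted p = 0.00361). In the same libraries the CB1R KO against WT bleomycin difference of Traf5 turned from 0.07 to -0.11, and that of Traf1 went from 0.13 to 0.04, so that the position of all 4 CB1R KO libraries above the WT bleomycin mean in Traf5 rests on the WT bleomycin libraries labelled in capitals. Summed B cell markers were at 61.7 and 77.2 TPM in 4-B2 and 7 and at 60.4 to 172 TPM in the other WT bleomycin libraries. T and NK cell markers summed to 74.6 and 93.7 TPM, within the 70.6 to 113 TPM of those other libraries. Some other lists lay apart there, such as plasma cells (173 and 362 TPM against 45.6 to 156 TPM) and type II cells (19190 and 18960 against 20880 to 22650 TPM). Control 26 lay within the other controls in both (33.5 and 36340 TPM). The part of any of these markers in these levels was not tested. All 4 CB1R KO libraries are labelled in lower case.

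**Figure D4:**
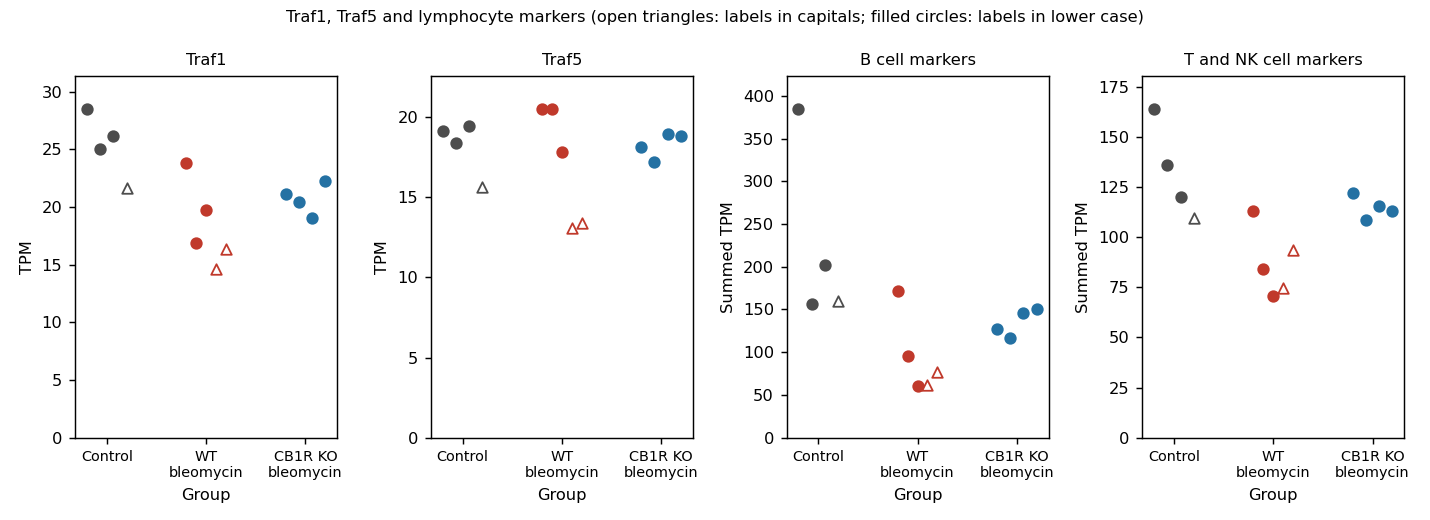
Traf1 and Traf5 in TPM, and the summed TPM of 6 B cell and 8 T and NK cell markers, by group, with open triangles for libraries labelled in capitals and filled circles for those labelled in lower case. The 2 open triangles of WT bleomycin lie at 13.1 and 13.4 TPM of Traf5, below every other library. Their B cell marker sums (61.7 and 77.2 TPM) and T and NK cell marker sums (74.6 and 93.7 TPM) lie within the range of the other WT bleomycin libraries.

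The genes around the TRAFs were taken from 9 lists written by role, 115 genes of which 112 were tested (Tnfrsf17, Mep1a and Mep1b had too few counts). In WT bleomycin against control 44 rose and 26 fell, or 62.5% called beside 48.9% of all tested genes, and the median log2 fold change was 0.05 beside -0.01. In CB1R KO against WT bleomycin 2 of 112 were called, both lower, or 1.79% beside 0.979% of all tested genes, and 17 of 112 had an unadjusted p under 0.05, which is near the 17.0% of all tested genes. In CB1R KO bleomycin against control 35 rose and 14 fell, or 43.8% beside 35.4%.

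Of the TNF receptors that bind TRAFs, directly or through an adaptor, 10 of 17 rose and 3 fell with bleomycin in WT mice. Their median log2 fold change was 0.57. That is 76.5% called beside 48.9% of all tested genes. Tnfrsf12a, the receptor of TWEAK, went from 35.4 ± 6.03 TPM in control (SD, n = 4) to 149 ± 9.90 TPM in WT bleomycin lungs (SD, n = 5), a log2 fold change of 2.04 (SE 0.13, edgeR adjusted p = 6.9e-08). Eda2r, a receptor of the ectodysplasin A2 isoform, went from 0.725 ± 0.115 to 4.34 ± 0.747 TPM (log2 fold change 2.47, SE 0.16, edgeR adjusted p = 8.68e-08). The receptors that fell included Tnfrsf14, the receptor of LIGHT (log2 fold change -0.42, SE 0.12, edgeR adjusted p = 0.00967), and Tnfrsf13c, the BAFF receptor of B cells (-0.99, SE 0.35, edgeR adjusted p = 0.03). Without control 3, the control library with the highest sum of B cell markers (385 TPM), the log2 fold change of Tnfrsf13c was -0.53 and the call was lost (adjusted p = 0.179). The call was also lost, at log2 fold changes of -0.98 to -0.82, without WT bleomycin 2 (adjusted p = 0.0522), 5 (0.0702) or 4-B2 (0.0703), and 5 of 6 B cell markers fell in the same comparison, whose part was not tested.

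In the interleukin-1, Toll-like and interleukin-17 receptor arm that Traf6 serves, 10 of 19 rose and 1 fell, with a median log2 fold change of 0.28. The share called was 57.9%, beside 48.9% of all tested genes. Il1r1, the interleukin-1 receptor, went from 15.5 ± 1.43 TPM (SD, n = 4) to 38.1 ± 2.84 TPM (SD, n = 5), a log2 fold change of 1.26 (SE 0.08, edgeR adjusted p = 6.9e-08). Tlr2, which recognizes bacterial lipoproteins, had a log2 fold change of 1.07 (SE 0.13, edgeR adjusted p = 9.62e-06). The gene that fell was Traf3ip2, which encodes the interleukin-17 receptor adaptor Act1 (-0.45, SE 0.09, edgeR adjusted p = 0.00101). Traf6 itself, downstream of these receptors, did not pass the test.

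Among the ubiquitin ligases and kinase scaffolds that work beside Traf2, 2 of 14 rose and 2 fell, with a median of -0.03. The 28.6% called lay below the 48.9% of all tested genes. Those that rose were Tradd (log2 fold change 0.38, SE 0.10) and Ripk1 (0.30, SE 0.08), which bridge TNF receptor 1 to Traf2, with edgeR adjusted p of 0.00475 and 0.005. Those that fell were Rnf31 (-0.29, SE 0.07, edgeR adjusted p = 0.00251) and Sharpin (-0.26, SE 0.10, edgeR adjusted p = 0.0415), subunits of the linear ubiquitin ligase. Sharpin was lost in 14 of 25 alternatives, among them 8 single libraries left out (control 3 and 21, WT bleomycin 2, 4-B2 and 7, and CB1R KO 8, 9 and 10), with adjusted p up to 0.157 without control 21.

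The NF-kB kinases and subunits held 3 of 9 that rose and 1 that fell, with a median of 0.02. The 44.4% called is near the 48.9% of all tested genes. The subunits of the non-canonical route, which Traf3 restrains through NIK, rose: Nfkb2 by a log2 fold change of 0.86 (SE 0.10, edgeR adjusted p = 9.98e-06) and Relb by 1.04 (SE 0.16, edgeR adjusted p = 8.8e-05). Map3k14, the gene of NIK, rose as well (0.49, SE 0.12, edgeR adjusted p = 0.00343), and the kinase gene Chuk did not pass (0.11, SE 0.07, edgeR adjusted p = 0.211). Ikbkb, the kinase of the canonical route, fell (-0.27, SE 0.06, edgeR adjusted p = 0.00142).

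In the antiviral arm of Traf3, 5 of 11 rose and 3 fell, or 72.7% called beside 48.9% of all tested genes, with a median of -0.01. Sting1, the sensor adaptor of cytosolic DNA signalling, had a log2 fold change of 1.54 (SE 0.16, edgeR adjusted p = 3.26e-06), and Irf7, an interferon regulatory factor, of 1.18 (SE 0.16, edgeR adjusted p = 3.91e-05). Tbkbp1, an adaptor of the kinase TBK1 (-0.52, SE 0.07), and Mavs, the adaptor of the RNA sensors (-0.30, SE 0.07), fell, with edgeR adjusted p of 1.98e-05 and 0.0037.

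Of the inhibitors and deubiquitinases that limit TRAF signals, 6 of 15 rose and 4 fell, with a median of 0.18. That is 66.7% called beside 48.9% of all tested genes. Tnip3, a binding partner of A20, went from 1.29 ± 0.488 TPM (SD, n = 4) to 9.84 ± 1.42 TPM (SD, n = 5), a log2 fold change of 2.83 (SE 0.25, edgeR adjusted p = 8.99e-07). Nfkbie, an inhibitor of NF-kB, had a log2 fold change of 1.24 (SE 0.19, edgeR adjusted p = 0.000111). Otud7b, a deubiquitinase of Traf3 (-0.32, SE 0.08), and Nfkbia, the main inhibitor of NF-kB (-0.75, SE 0.19), fell, with edgeR adjusted p of 0.00503 and 0.00526.

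The stress kinase cascade was the list with most falls, 8 of 12 against 1 that rose, with a median of -0.26. Its share called was 75%, beside 48.9% of all tested genes. Map4k2, a kinase bound by Traf2, went from 51.7 ± 6.64 TPM (SD, n = 4) to 21.5 ± 2.92 TPM (SD, n = 5), a log2 fold change of -1.30 (SE 0.11, edgeR adjusted p = 5.82e-07). Map3k5, the kinase ASK1, had a log2 fold change of -0.62 (SE 0.06, edgeR adjusted p = 3.07e-06). The gene that rose was Map2k4, a kinase of JNK and p38 (0.22, SE 0.05, edgeR adjusted p = 0.0028).

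Among proteins that interact with TRAFs, 7 of 11 rose and 2 fell, or 81.8% called beside 48.9% of all tested genes, with a median of 0.29. Tgfbr1, a TGF-beta receptor to which Traf4 and Traf6 bind, had a log2 fold change of 0.79 (SE 0.07, edgeR adjusted p = 5.58e-07), and Tifa, an activator of Traf6, of 0.76 (SE 0.13, edgeR adjusted p = 0.00026). Smurf2, a ubiquitin ligase of TGF-beta signalling that Traf4 antagonizes, fell (-0.55, SE 0.08, edgeR adjusted p = 7.08e-05). Sqstm1, the scaffold p62 that binds Traf6, fell too (-0.20, SE 0.06, edgeR adjusted p = 0.0191), and was lost without control 21 (adjusted p = 0.0522) or control 26 (0.0582). Of the other genes with a MATH domain, 0 of 4 rose and 2 fell, with a median of -0.17. The 50% called is near the 48.9% of all tested genes. Those that fell were Spop, a substrate adaptor of a cullin ligase (-0.52, SE 0.05, edgeR adjusted p = 2.52e-06), and its relative Spopl (-0.28, SE 0.10, edgeR adjusted p = 0.0347). The call of Spopl was lost without control 3 (adjusted p = 0.0597), 21 (0.0601) or 24 (0.11) and without WT bleomycin 2 (0.0731) or 5 (0.0887).

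The pair of list genes called between CB1R KO and WT bleomycin were Tnfrsf12a and Smurf1, and in both every CB1R KO library lay below every WT bleomycin library in CPM. Tnfrsf12a was at 101 ± 17.0 TPM in CB1R KO (SD, n = 4) and 149 ± 9.90 TPM in WT bleomycin lungs (SD, n = 5), a log2 fold change of -0.60 (SE 0.12, edgeR adjusted p = 0.0314), and was still above control (35.4 ± 6.03 TPM, SD, n = 4). Smurf1, a ubiquitin ligase of TGF-beta signalling, was at 28.1 ± 1.43 TPM in CB1R KO (SD, n = 4) and 32.7 ± 1.74 TPM in WT bleomycin lungs (SD, n = 5), a log2 fold change of -0.28 (SE 0.06, edgeR adjusted p = 0.0416). Both calls were lost in many alternatives, 11 of 25 for Tnfrsf12a and 16 of 25 for Smurf1. With label style as a term the edgeR adjusted p was 0.0864 for Tnfrsf12a and 0.0792 for Smurf1. In lower-case labels alone it was 0.171 and 0.19. Left-out libraries that ended the call of Tnfrsf12a were WT bleomycin 2 (adjusted p = 0.0576), 5 (0.0613), 4-B2 (0.0879) and 7 (0.0831) and CB1R KO 8 (0.0796), 9 (0.0946) and 11 (0.0837). For Smurf1 they were control 24 (0.0647), WT bleomycin 4 (0.0576), 2 (0.0519), 5 (0.098), 4-B2 (0.0932) and 7 (0.0969) and CB1R KO 8 (0.112), 9 (0.17) and 11 (0.0893).

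**Figure D5:**
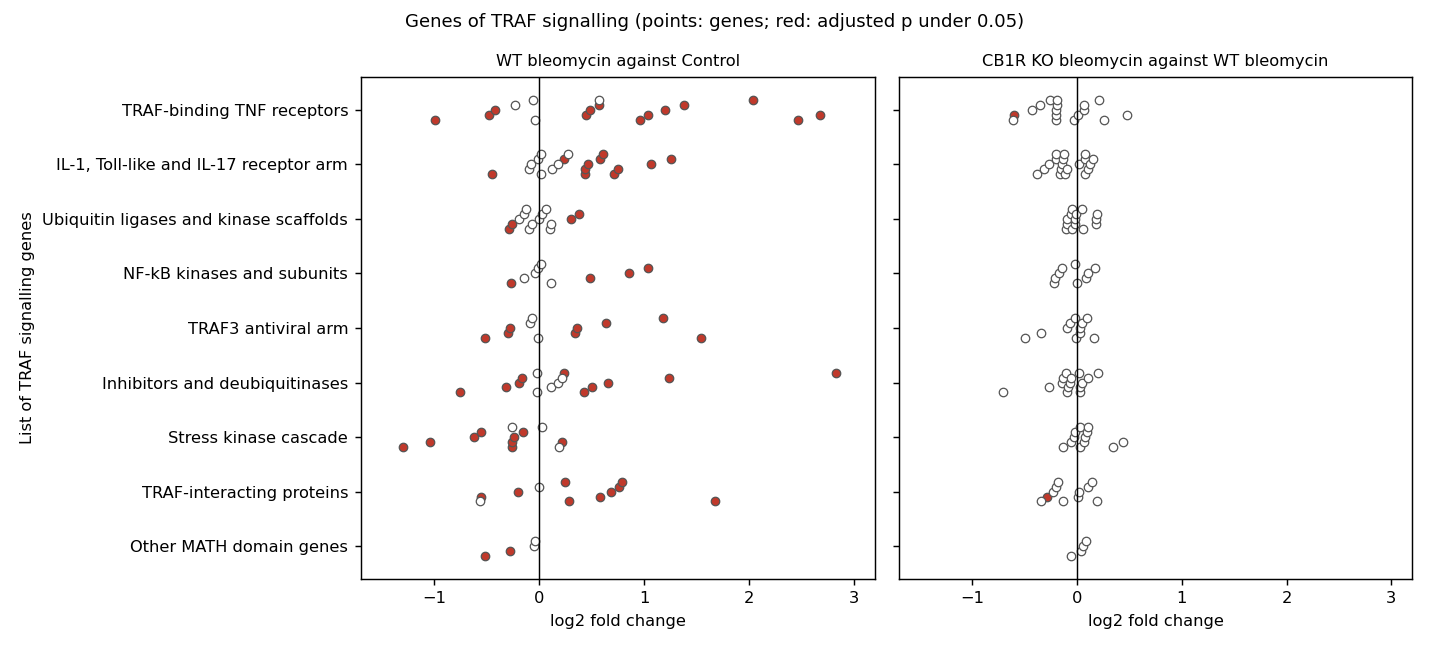
Log2 fold changes of the genes of 9 TRAF signalling lists in WT bleomycin against control (left) and CB1R KO against WT bleomycin (right), with a point per gene, red at an adjusted p under 0.05. On the left 44 of 112 genes are red to the right of 0 and 26 to the left, and on the right only Tnfrsf12a (-0.60) and Smurf1 (-0.28) are red.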

How the data were processed

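Lung RNA of the 13 samples was sequenced by the authors as paired-end reads of oligo(dT)-selected NEBNext Ultra II libraries on an Illumina HiSeq. The authors quantified reads with Kallisto on an Ensembl mouse reference (GRCm39 in the submitters' processing notes), summed over protein-coding transcripts, and deposited estimated counts, not normalized, and TPM per gene symbol. In the TPM table, 1 sample column matched no sample and was not used.

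Estimated counts were rounded, filtered with filterByExpr (15315 genes kept) and fitted in edgeR 4.0.16 under R 4.3.3 by quasi-likelihood, with TMM scaling, the 3 groups together, no covariates and Benjamini-Hochberg adjustment at 0.05 over the genes tested. A prior count of 2 was added for log2 CPM. The procedure was tested on simulated data. TPM were used for levels between genes. DESeq2 1.42.0 and limma 3.58.1 on log2(TPM + 1) and log2(TPM + 0.1) were alternatives, beside other filters, normalizations, a term for label style, thinning of CB1R KO library 11 and each library left out in turn. Promoters came from a RefSeq table (GRCm38.p6), which is another build than the counts, and were searched with Python 3.11.15.

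Genes named were the 7 members, Cnr1, the 3 genes most like each member, from each of 9 signalling lists the 2 with the lowest p in each direction in WT bleomycin against control, and every list gene called between CB1R KO and WT bleomycin. Map3k14 and Chuk were named outside this rule and are not in the outlier and single-gene checks. Cell types were followed as sums of 17 marker lists. The members and lists were chosen with earlier results of these data known. The labels do not say how the mice were housed or batched. The spread between libraries that the tests use may thus hold such differences beside those between mice.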

Additional observations from a re-analysis of the deposited data

Results flagged for a closer look

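Within groups of 4 or 5 libraries the highest or lowest value was set against the others by Dixon's rule, which chance passes in about 1 of 20 groups. None of the 21 groups of the TRAF members passed it, and 4 of 96 groups of the named signalling genes did. Tlr2 was at 25.8 TPM in WT bleomycin library 7 beside 37.0 to 39.8 TPM in the other WT bleomycin libraries. Sharpin was at 16.8 TPM in CB1R KO library 11 beside 18.7 to 19.1 TPM in the other CB1R KO libraries. Relb was at 33.7 TPM in CB1R KO library 10 beside 25.2 to 26.0 TPM in the other CB1R KO libraries. Spop was at 169 TPM in control library 3 beside 161 to 162 TPM in the other controls.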

How the results depend on the processing

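Each comparison was repeated under 25 alternatives, of which 13 left out a library. In WT bleomycin against control, Traf1 (log2 fold change -0.60 to -0.46), Traf3 (0.26 to 0.39) and Traf4 (0.81 to 0.96) were called in 25 of 25. In CB1R KO bleomycin against control, Traf4 (0.61 to 0.77) was called in 25 of 25 and Traf1 and Traf3 in 23 of 25. No member was called between CB1R KO and WT bleomycin in any of the 25. The counts of members called stayed within 1.5 times of their value in all 3 comparisons.

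Members that did not pass the test changed sign near 0. On log2 TPM with either pseudocount Traf7 was 0.15 (WT bleomycin against control) and 0.08 (CB1R KO bleomycin against control), Traf2 was 0.03 (CB1R KO against WT bleomycin) and Traf5 was 0.01 (CB1R KO bleomycin against control). Traf5 in CB1R KO against WT bleomycin was -0.07 with label style as a term and -0.11 in lower-case labels alone. With single libraries left out, Traf7 in WT bleomycin against control ran from -0.19 to 0.04, above 0 without control 3 (0.03) or 26 (0.04), and Traf6 in CB1R KO against WT bleomycin from -0.02 to 0.05, below 0 without WT bleomycin 2. The causes were not tested.

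The 150 genes called between CB1R KO and WT bleomycin became 640 with DESeq2 on all libraries, 644 with DESeq2 on the 2 groups, 93 with limma on log2(TPM + 0.1), 88 with edgeR on the 2 groups, 41 with label style as a term and 6 in lower-case labels alone, and 1 (without CB1R KO 9) to 653 (without CB1R KO 10) with a library left out. For CB1R KO bleomycin against control the share of calls that were higher was 53.8%, and 70.3% on log2(TPM + 1) and 71.4% on log2(TPM + 0.1), where the median log2 fold change of all genes was 0.07 and 0.08. Of the single-gene checks of named signalling genes, 764 kept their call and 61 lost it, and no sign turned. Counts of genes called higher or lower in each list stayed within 1.5 times of their value in 1211 checks and moved further in 139.

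The groups hold 4 or 5 libraries, so a member's standard error of 0.07 to 0.15 in log2 sets what could be seen. No paired analysis was possible because the groups share no replicate numbers in the labels.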

Other observations

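The marker lists below, some of which were also named beside Traf1, Traf3 and Traf4, describe the tissue in which the TRAF transcripts were measured. Of all tested genes 25.0% were called higher and 23.9% lower in WT bleomycin against control. In WT bleomycin against control the markers called higher and lower were 4 and 0 of 6 for fibroblasts, 5 and 0 of 5 for dividing cells, 3 and 1 of 7 for dendritic cells, 1 and 0 of 3 tested for plasma cells, and 1 and 1 of 5 for alveolar macrophages. They were 0 and 5 of 6 for type II cells, 1 and 2 of 5 for type I cells, 0 and 0 of 5 for ciliated cells and 1 and 6 of 7 for endothelium. They were 0 and 4 of 5 for neutrophils, 0 and 5 of 5 for red blood cells, 0 and 5 of 5 for cardiac and striated muscle and 0 and 2 of 3 tested for adipocytes. Summed fibroblast markers were at 523 to 631 TPM in control, 2007 to 2722 TPM in WT bleomycin and 1455 to 2248 TPM in CB1R KO bleomycin libraries.

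Between CB1R KO and WT bleomycin few markers were called: 3 of 6 for type II cells, 1 of 7 for endothelium and 1 of 8 for T and NK cells were higher, and 1 of 8 for transitional and basal epithelium was lower. Over all tested genes 0.359% were called higher and 0.620% lower. In the other 13 lists no marker was called. Monocyte-derived macrophage markers summed to 939, 767, 1335 and 1021 TPM in CB1R KO 8, 9, 10 and 11. Traf3 was at 19.6, 19.6, 20.1 and 18.6 TPM in the same libraries. In CPM it was at 70.7, 68.2, 76.5 and 70.1, and a relation between the markers and Traf3 was not tested.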
